A study of Homo sapiens with 8 samples.

Results

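Translation initiation factors were examined as a group of 42 genes, EIF1 to EIF6, taken by gene symbol from the 60282 genes listed in the count table. All 42 symbols were found, and all 42 genes passed the filter on low counts that left 14073 genes for testing. The cells were SK-UT-1, an established line from a human uterine leiomyosarcoma, a malignant tumor of smooth muscle. The vehicle group received DMSO, and the treated group received 5 µM TP-472 for 48 h, with 4 libraries in each group and no other difference in genotype, medium or agent given in the labels. TP-472 is a small molecule that blocks the bromodomains of BRD9 and the related BRD7, which read acetylated lysines on chromatin, and the study asked how such inhibition alters the transcriptome of these cells. A single line was used, and nothing in the sample descriptions says whether replicates came from separate cultures. The study states that its experiments used biological replicates, but not what these were for the RNA libraries. The p-values therefore measure only the spread between these libraries.

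Initiation is the step of translation at which the ribosome is loaded onto an mRNA and finds the start codon. The factor eIF2, bound to GTP, brings the initiator tRNA to the small ribosomal subunit, and eIF2B recharges eIF2 with GTP after each round. The large complex eIF3, together with eIF1 and eIF1A, holds the small subunit in a form that can scan. The cap-binding complex eIF4F, made of the cap-binding protein eIF4E, the scaffold eIF4G and the RNA helicase eIF4A, recruits the mRNA, and the 4E-BP proteins hold eIF4E back when mTOR is inactive. At the start codon eIF5 makes eIF2 hydrolyse its GTP, eIF5B joins the large subunit, and eIF6 keeps free large subunits apart from small ones. Growing cells generally hold high amounts of these mRNAs.

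Levels are given in CPM, the usual counts scaled to library size, here with edgeR's TMM factors, and values of single libraries stand in the order of replicates 1 to 4. The libraries held between 32574716 and 38545695 estimated counts, and each of the 42 genes had between 453 and 51767 counts in a library. CPM are shares of a library, and a lower amount of RNA per cell cannot be told apart from fewer cells in bulk samples. Differences were tested with edgeR's quasi-likelihood test over all 14073 genes, and adjusted p-values are from the Benjamini-Hochberg method over all of them. A gene was called at an adjusted p under 0.05 together with a fold change over 1.5, the limits the study used.

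Vehicle replicate 3 stood apart from the other libraries. Its score on the first principal component was −94.0, against −36.4, −13.5 and −14.5 for vehicle replicates 1, 2 and 4 and between 37.0 and 43.4 for the TP-472 libraries. Its median Spearman correlation with its own group was 0.914, against at least 0.988 for every other library. In that library the genes in the lowest of 4 equal groups by GC content lay a median of 0.61 below the mean of all libraries on the log2 scale and those in the highest group 0.84 above it, whereas the corresponding values of the other libraries lay between −0.25 and 0.16. The initiation factors followed the same division. Vehicle replicate 3 was below the mean of the other vehicle libraries for 28 genes, with a median GC content of 42.9%, and above it for 14 genes, with a median of 52.0%. Fold changes are therefore given with and without this library, whereas means ± SD, summed levels and levels per kilobase include it.

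TP-472-treated cells exhibited higher expression of part of the group. Of the 42 genes, 8 were called higher (19.0%), beside 12% of all genes tested, and 0 were called lower, beside 14.9%. The 8 genes were EIF5, EIF3J, EIF2S1, EIF6, EIF1AX, EIF2B2, EIF4A3 and EIF5A2. By the limit on the adjusted p alone, 23 genes were higher, beside 17.2% of all genes, and 0 were lower, beside 19.1%. At an unadjusted p under 0.05, 26 genes were higher and 1 lower in edgeR, beside 22.3% and 25.5% of all genes. DESeq2 gave 27 higher and 1 lower, beside 13.7% and 14.2% of the 33192 genes with a count. That base includes genes under the filter on low counts, which all 42 genes passed, so its shares are not like those of the other fits. Limma-voom with quality weights gave 35 higher and 3 lower, beside 35.4% of the genes past the filter in each direction. The median log2 fold change of the 42 genes was 0.42, beside −0.026 over all genes tested, and the estimates ran from −0.26 for EIF4EBP2 and EIF4G3 to 1.00 for EIF5.

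Without vehicle replicate 3, 7 genes were called higher, beside 12% of all genes, of which 6 were shared with the 8 above. EIF1AX and EIF5A2 lost their call and EIF1AD gained it, and 0 genes were called lower, beside 13.4%. By the adjusted p alone, 32 genes were then higher, beside 28.6% of all genes, and 3 were lower, beside 28.4%. The 3 lower genes were EIF4A2, EIF4B and EIF4G3. The median log2 fold change was 0.37, beside −2.1e-05 over all genes, and the median standard error of the 42 estimates fell from 0.14 to 0.078.

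With an offset for GC content in the edgeR fit, 11 of the 42 genes were called higher, beside 13.2% of all genes, and 0 lower, beside 15%. EIF4A3 and EIF5A2 lost their call, 6 of the 8 were called in both fits, and 5 genes were called with the offset alone. The 5 were EIF3B at 0.67 on the log2 scale, EIF3G at 0.65, EIF4E at 0.68, EIF4EBP1 at 0.60 and EIF5A at 0.62.

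The 4 TP-472 libraries lay above all 4 vehicle libraries for 28 of the 42 genes, beside 23.8% of all genes tested, and below them for 0 genes, beside 21.6%. Without vehicle replicate 3, the counts were 33 genes above, beside 29.8%, and 2 genes below, beside 28.7%. The summed level of the 42 genes was 9187, 10071, 8372 and 9929 CPM in the vehicle libraries and 11845, 12066, 12091 and 11739.8 CPM in the treated libraries. The sum in each TP-472 library was above that in every vehicle library, and vehicle replicate 3 had the lowest sum. The spread was wider under vehicle, with an SD of 781 CPM against 171 CPM.

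**Figure D1:**
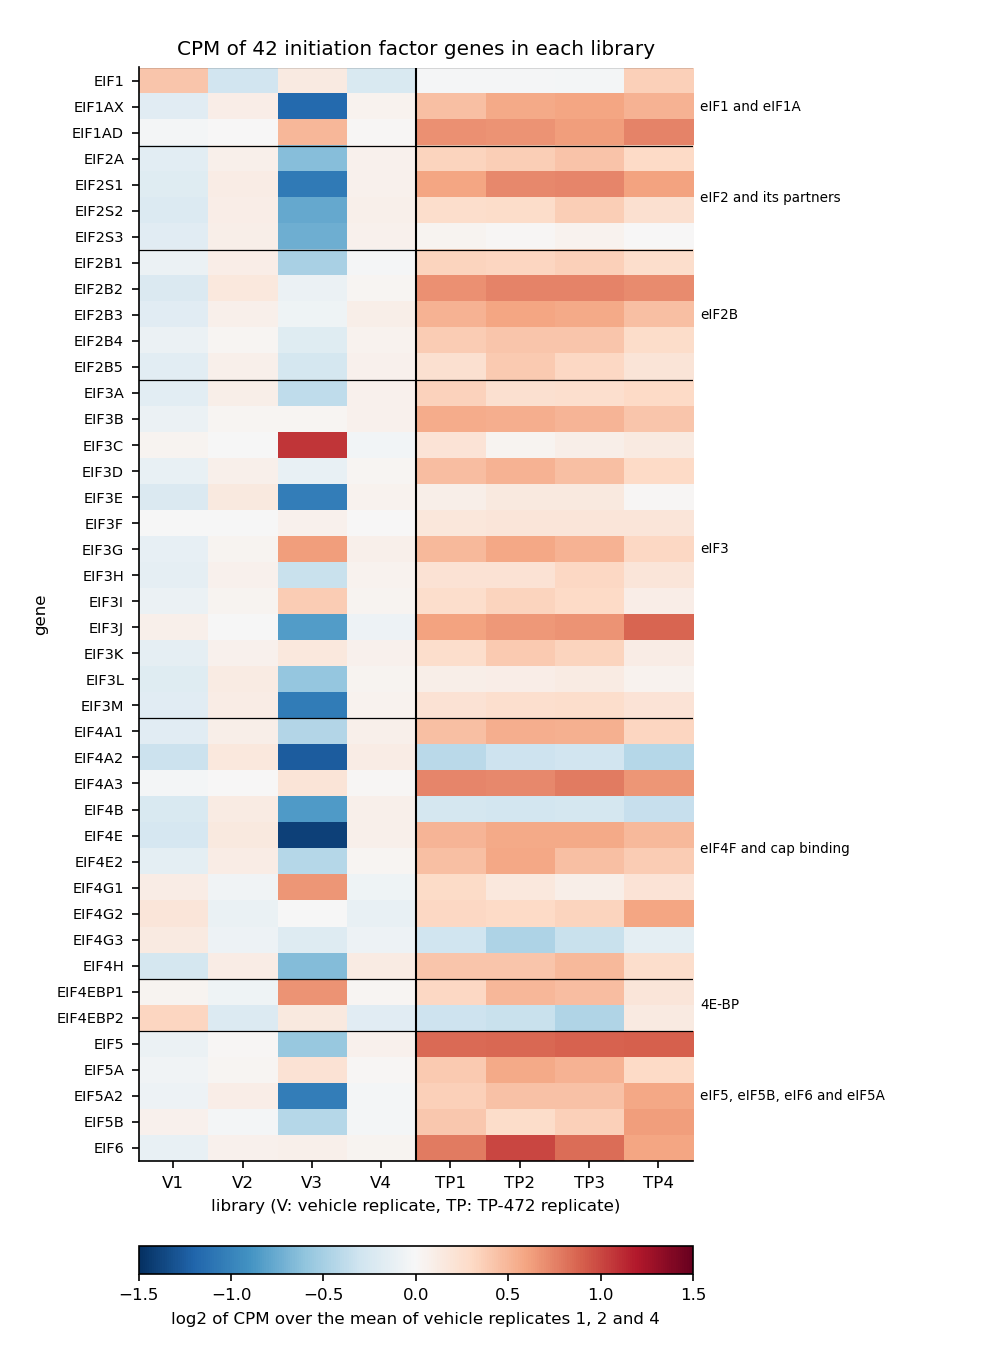
Each row is a gene and each column a library (V, vehicle replicates 1 to 4; TP, TP-472 replicates 1 to 4), and color gives the log2 of the CPM over the mean of vehicle replicates 1, 2 and 4. Vehicle replicate 3 is mostly blue, below the mean of the other vehicle libraries for 28 genes, while the TP-472 columns resemble each other.

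**Figure D2:**
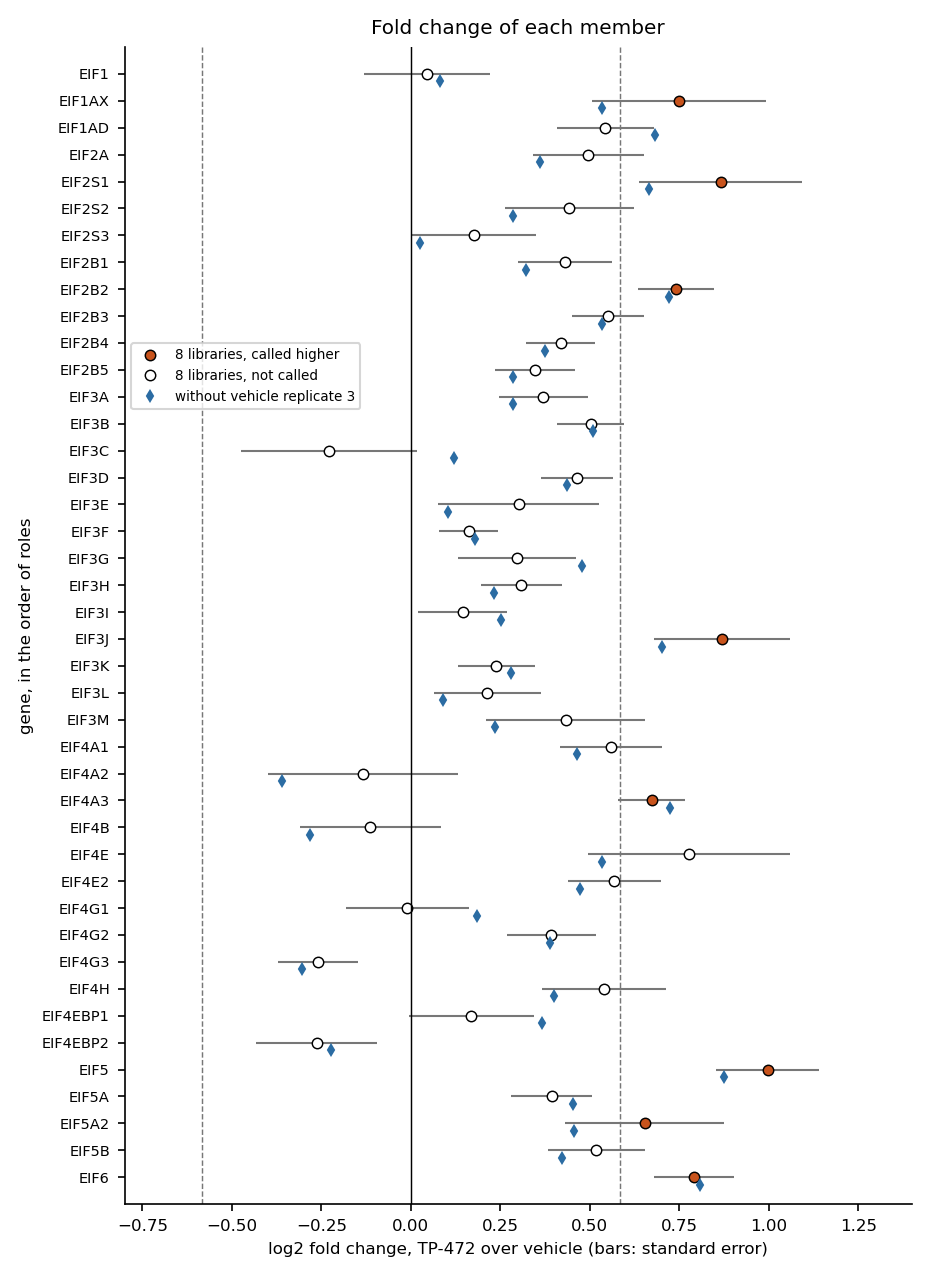
Circles give the log2 fold change of each gene, TP-472 over vehicle, with its standard error as a bar, filled for the 8 genes called higher, and diamonds give the estimate without vehicle replicate 3. The dashed lines mark a fold change of 1.5 in each direction, and no gene reaches the lower line.

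Promoter stretches of EIF4A3 and EIF5A2, which were called, and of EIF4G1 and EIF5A, which were not, are shown. Among the genes with values in all libraries, these carry motif matches before the start and outside exons. RefSeq windows on GRCh38.p14, from 250 bases before to 50 bases after each annotated start, were at hand for 35 of the 42 genes. The E-box CACGTG, a palindrome and so the same on both strands, is bound by MYC and related factors, and it was present in 9 of the 35 genes (25.7%), beside 8.77% of all 27305 genes in the table and 12.7% of the 10200 that were also tested here. The ETS letters CCGGAAGT, or ACTTCCGG for the other strand, were in 9 of the 35 genes as well (25.7%), beside 4.95% of all genes and 10.2% of those tested. Of the 8 called genes, 2 held the E-box, EIF4A3 and EIF5A2, and 3 the ETS letters, EIF2B2, EIF5A2 and EIF6. The matches of EIF2B2 and EIF6, and a further match in a window of EIF4G1, reach past the start or into an exon and are not printed. These are matches of letters, not measured binding sites. The printed stretches lie before the RefSeq start and outside exons of protein-coding genes in GENCODE, are written 5′ to 3′ on the strand of the gene, and carry the matches in capitals. EIF4A3 lies at chr17:80147197-80147296 on the minus strand, EIF5A2 at chr3:170908770-170908869 on the minus strand, EIF4G1 at chr3:184314395-184314494 on the plus strand and EIF5A at chr17:7308188-7308287 on the plus strand. The E-box of EIF4A3 begins 121 bases before the start, those of EIF5A2 187 and 162 bases and its ETS letters 209 bases before it, the E-box of EIF4G1 144 bases and the ETS letters of EIF5A 139 bases before it. EIF5A has 6 RefSeq windows and EIF4G1 has 3, and each stretch belongs to 1 of them.
EIF4A3: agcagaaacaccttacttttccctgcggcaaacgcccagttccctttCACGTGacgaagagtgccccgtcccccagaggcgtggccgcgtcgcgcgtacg
EIF5A2: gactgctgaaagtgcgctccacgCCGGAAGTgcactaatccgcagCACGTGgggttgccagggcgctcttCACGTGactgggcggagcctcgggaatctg
EIF4G1: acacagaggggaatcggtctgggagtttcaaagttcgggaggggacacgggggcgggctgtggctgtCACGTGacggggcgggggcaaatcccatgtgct
EIF5A: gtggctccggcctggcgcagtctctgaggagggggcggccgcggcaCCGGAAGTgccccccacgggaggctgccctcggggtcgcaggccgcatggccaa

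Among the factors that deliver the initiator tRNA, the alpha subunit of eIF2 exhibited the largest change. EIF2S1 (ENSG00000134001.14, chr14:67359997-67386516, GENCODE 29 on GRCh38) encodes this subunit, which stress kinases phosphorylate to slow translation. EIF2S1 was at 148, 181, 80.5 and 176 CPM in the vehicle libraries and at 253, 276, 280.3 and 255 CPM in the treated libraries. The groups did not overlap, and vehicle replicate 3 was far below its group. EIF2S1 rose by a log2 fold change of 0.87 (SE 0.23, adjusted p = 0.0180), and 0.66 without vehicle replicate 3 (adjusted p = 0.000143). It remained called in 7 of the 8 fits that left out a single library. EIF2S1 also stands among the hub genes that the study selected on these samples, so its change is not independent of that choice.

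The other genes of this role were not called. EIF2S2, the beta subunit, had means of 194 ± 48.9 CPM in vehicle and 264 ± 10.1 CPM in treated cells (SD, n = 4), with an estimate of 0.44 on the log2 scale (adjusted p = 0.0827) and no overlap between the groups. The EIF2S2 estimate was 0.29 without vehicle replicate 3 (adjusted p = 0.0141). EIF2S3, the gamma subunit, which binds GTP and the tRNA, had means of 453 ± 107 and 512 ± 7.24 CPM (SD, n = 4), the groups overlapped, and its log2 fold change was 0.18 (adjusted p = 0.439) and 0.03 without vehicle replicate 3. EIF2A, a separate protein that can deliver initiator tRNA without GTP, had a log2 fold change of 0.50 (adjusted p = 0.0350), and 0.36 without vehicle replicate 3 (adjusted p = 0.00207), under the limit on the fold change in both. Of these 4 genes, 1 was called higher in both fits, beside 12% of all genes in each, and 2 passed the adjusted p alone in all libraries, beside 17.2% of all genes, against 3 without vehicle replicate 3, beside 28.6%.

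All 5 subunits of eIF2B, the exchange factor that is the target of phosphorylated eIF2, passed the adjusted p alone with higher expression in treated cells, in all libraries, beside 17.2% of all genes, and without vehicle replicate 3, beside 28.6%, and 1 of the 5 passed the fold limit as well, beside 12%. EIF2B2 (ENSG00000119718.11, chr14:75002911-75012366), the beta subunit of the regulatory part, was at 28.4, 36.9, 31.2 and 33.8 CPM in vehicle and at 53.1, 55.1, 55.5 and 53.9 CPM in treated cells. Every treated library lay well above every vehicle library, and vehicle replicate 3 was in the middle of its group. EIF2B2 had a log2 fold change of 0.74 (SE 0.11, adjusted p = 0.00130), 0.72 without vehicle replicate 3, and was called in all 8 fits that left out a single library. EIF2B3, the gamma subunit of the catalytic part, followed with 0.55 (adjusted p = 0.00389), and 0.53 without vehicle replicate 3. The others were EIF2B1 with 0.43 (adjusted p = 0.0323), EIF2B4 with 0.42 (adjusted p = 0.0109) and EIF2B5, the catalytic epsilon subunit, with 0.35 (adjusted p = 0.0388). These were at 0.32, 0.38 and 0.29 without vehicle replicate 3. With the GC offset all 5 passed the adjusted p, beside 25.2% of all genes. Without the filter on low counts, EIF2B1, EIF2B4 and EIF2B5 missed it (adjusted p = 0.0912, 0.0581 and 0.141 in edgeR). Over the 18 alternative fits the adjusted p of EIF2B4 reached 0.0601, so that fit was not the only one it missed. EIF2B2 and EIF2B3 passed in all of them, with adjusted p of at most 0.0125 and 0.0285. The summed level of the 5 genes was 192 ± 19.4 CPM in vehicle and 269 ± 9.49 CPM in treated cells (SD, n = 4).

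Of the scanning factors eIF1 and eIF1A and their relative EIF1AD, 1 of 3 genes was called higher, beside 12% of all genes. EIF1AX (ENSG00000173674.11, chrX:20124518-20141844) encodes eIF1A, which occupies the A site of the ribosome during scanning. It was at 271, 325, 135 and 316 CPM in the vehicle libraries and at 414, 450.0, 459 and 437 CPM in the treated libraries. The groups did not overlap, but vehicle replicate 3 was far below the others. A log2 fold change of 0.75 (SE 0.24, adjusted p = 0.0394) became 0.53 without that library (adjusted p = 0.000391), under the fold limit, and the call held in only 2 of the 8 fits with a library left out. Limma-voom gave 0.48, also under that limit, and the GC offset 0.61, which was called. EIF1, which guards the choice of start codon, had means of 131 ± 30.6 and 135 ± 19.0 CPM (SD, n = 4) and a log2 fold change of 0.04 (adjusted p = 0.857), with overlapping groups and 0.08 without vehicle replicate 3.

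EIF1AD (ENSG00000175376.9, chr11:65996545-66002176) is named for a domain it shares with eIF1A. It was at 25.7, 26.5, 37.0 and 26.7 CPM in the vehicle libraries and at 42.4, 41.9, 40.7 and 43.9 CPM in the treated libraries. Here vehicle replicate 3 was the highest of its group, still below every treated library. EIF1AD had an estimate of 0.54 on the log2 scale (SE 0.14, adjusted p = 0.0148), under the fold limit, and 0.68 without vehicle replicate 3 (adjusted p = 1.56e-05), which was called. EIF1AD overlaps BANF1 on the opposite strand, whose level was higher than its own.

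The 13 genes of eIF3 encode the scaffold that binds the small subunit and links it to eIF4G. Of these, 1 was called higher and 0 lower, beside 12% and 14.9% of all genes. By the adjusted p alone, 4 were higher and 0 lower, beside 17.2% and 19.1%. EIF3J (ENSG00000104131.13, chr15:44537057-44563029), a loosely bound subunit that sits near the mRNA channel, was the gene called. It was at 53.3, 50.3, 28.3 and 48.1 CPM in the vehicle libraries and at 77.1, 79.1, 80.4 and 92.4 CPM in the treated libraries. The groups were clearly apart, with vehicle replicate 3 the lowest and TP-472 replicate 4 the highest library. EIF3J had a log2 fold change of 0.87 (SE 0.19, adjusted p = 0.00819), 0.70 without vehicle replicate 3 (adjusted p = 6.52e-05), and was called in all 8 fits with a library left out.

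The core subunits showed smaller differences. EIF3B, a subunit that contacts the small ribosomal subunit near the decoding site, had a log2 fold change of 0.50 (adjusted p = 0.00418), EIF3D, which can itself bind the cap of some mRNAs, 0.46 (adjusted p = 0.00791), and EIF3A, the largest subunit, 0.37 (adjusted p = 0.0448). They were at 0.51, 0.44 and 0.28 without vehicle replicate 3, and with the GC offset EIF3B was called (0.67, adjusted p = 0.00251). EIF3G, the subunit with an RNA-binding domain, had 0.30 (adjusted p = 0.180), 0.48 without vehicle replicate 3 (adjusted p = 0.000820) and 0.65 with the GC offset (adjusted p = 0.000499), where it was called. With EIF3G, 9 genes had estimates from −0.23 for EIF3C to 0.43 for EIF3M and did not pass the adjusted p in all 8 libraries. Without vehicle replicate 3, 10 of the 13 eIF3 genes passed the adjusted p alone, all higher, beside 28.6% of all genes, with a median log2 fold change of 0.25 against 0.30 in all libraries. EIF3F varied little, at 133 ± 3.23 CPM in vehicle and 149 ± 0.639 CPM in treated cells (SD, n = 4), with no overlap. Its log2 fold change was 0.16 (adjusted p = 0.148), and 0.18 without vehicle replicate 3 (adjusted p = 0.0124). With the GC offset it was −0.021 (adjusted p = 0.912), so the sign turned.

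EIF3C, a core subunit, was at 329, 319, 671 and 311 CPM in the vehicle libraries and at 369.5, 329, 340.2 and 351 CPM in the treated libraries. Vehicle replicate 3 was about 2.10 times the mean of the other vehicle libraries and the highest of all 8. The log2 fold change of −0.23 (adjusted p = 0.483) became 0.12 without it (adjusted p = 0.130). EIF3C and EIF3CL are near-identical copies between which salmon divides reads, so their levels are uncertain. EIF3CL was at 14.8 ± 9.72 CPM in vehicle and 13.97 ± 7.15 CPM in treated cells (SD, n = 4).

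Of the 10 genes of the cap-binding group, 1 was called higher, beside 12% of all genes, 5 were higher by the adjusted p alone, beside 17.2%, and 4 had estimates below 0. EIF4A3 (ENSG00000141543.12, chr17:80135214-80147183), a helicase that acts mainly in the exon junction complex left on spliced mRNA, was the gene called. It was at 111, 114, 129 and 114 CPM in the vehicle libraries and at 188, 185, 194 and 179 CPM in the treated libraries. Vehicle replicate 3 was the highest of its group, and the groups were well separated. EIF4A3 rose by a log2 fold change of 0.67 (SE 0.09, adjusted p = 0.00109), 0.72 without vehicle replicate 3 (adjusted p = 7.93e-06), and the call held in all 8 fits with a library left out. With the GC offset the estimate was 0.56 (adjusted p = 0.00186), under the fold limit, and the call was lost.

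The eIF4A helicases of eIF4F are encoded by EIF4A1 and EIF4A2. EIF4A1 (ENSG00000161960.15), the main form in most cells, was at 750.3, 897, 626 and 889.8 CPM in the vehicle libraries and at 1155, 1232, 1220.0 and 1056 CPM in the treated libraries. The groups did not overlap. The log2 fold change of 0.56 (SE 0.14, adjusted p = 0.0158) was just under the fold limit, as it was without vehicle replicate 3 (0.46, adjusted p = 0.00225). EIF4A1 was called in 3 of the 8 fits with a library left out. EIF4A2 (ENSG00000156976.17), a close paralog, was at 371, 518, 195 and 501 CPM in vehicle and at 349, 372, 379 and 344 CPM in treated cells. The treated libraries lay within the range of the vehicle libraries, whose lowest was replicate 3. Its log2 fold change was −0.13 (SE 0.27, adjusted p = 0.709), and −0.36 without that library (adjusted p = 0.0194), under the fold limit.

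The log2 ratio of EIF4A1 to EIF4A2 within a library, which hardly depends on the scaling, was 1.02, 0.79, 1.68 and 0.83 in the vehicle libraries and 1.72, 1.73, 1.69 and 1.62 in the treated libraries. Vehicle replicate 3 stood level with the treated libraries and the other vehicle libraries below them. The difference of the means was 0.61 (exact two-sided permutation test, p = 0.0571, adjusted over 6 ratios 0.171), and 0.81 without vehicle replicate 3, with no overlap. The smallest p that 4 against 4 libraries allow is 0.0286, and none of the 6 ratios reached the threshold.

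EIF4E (ENSG00000151247.12, chr4:98871684-98930637), the cap-binding protein, was at 127, 168, 57.6 and 159.7 CPM in the vehicle libraries and at 215, 225, 224 and 212 CPM in the treated libraries. No vehicle library reached the treated ones, and vehicle replicate 3 was far below all others. The log2 fold change of 0.78 (SE 0.28) missed the limit on the adjusted p (0.0578). Without vehicle replicate 3 the adjusted p was 0.000947 and the estimate 0.53 missed the limit on the fold. The log2 fold change of EIF4E was called with the GC offset (0.68, adjusted p = 0.00818), with scaling to total counts (adjusted p = 0.0474) and by DESeq2 (adjusted p = 0.0399). EIF4E2 (ENSG00000135930.14), a cap-binding protein that represses rather than promotes translation, was at 42.8, 51.0, 35.1 and 48.3 CPM in vehicle and at 64.9, 71.0, 65.0 and 61.8 CPM in treated cells. These groups were apart as well, and its log2 fold change was 0.57 (SE 0.13, adjusted p = 0.0104), and 0.47 without vehicle replicate 3 (adjusted p = 0.000677). Both were under the fold limit, but EIF4E2 was called in 3 of the 8 fits with a library left out. The log2 ratio of EIF4E to EIF4E2 had means of 1.42 ± 0.48 and 1.73 ± 0.055 (SD, n = 4), with a difference of 0.31 (exact permutation p = 0.114, adjusted 0.214) and of 0.07 without vehicle replicate 3.

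The 4E-BP genes, whose products keep eIF4E from eIF4G, were not called with or without vehicle replicate 3, but EIF4EBP1 was called higher with the GC offset. EIF4EBP1 (ENSG00000187840.5) was at 57.8, 53.7, 89.7 and 57.6 CPM in the vehicle libraries and at 69.96, 79.7, 77.4 and 63.7 CPM in the treated libraries. Vehicle replicate 3 was above every treated library and the other vehicle libraries were below them. Its log2 fold change was 0.17 (SE 0.17, adjusted p = 0.464), 0.37 without that library (adjusted p = 0.00446) and 0.60 with the GC offset (adjusted p = 0.00494). EIF4EBP2 had means of 148 ± 26.3 and 123 ± 23.4 CPM (SD, n = 4) and a log2 fold change of −0.26 (adjusted p = 0.243), and −0.22 without vehicle replicate 3, with overlapping groups. The log2 ratio of EIF4EBP1 to EIF4E was −1.13, −1.63, 0.63 and −1.46 in vehicle replicates 1 to 4 and between −1.73 and −1.49 in the treated libraries. Vehicle replicate 3 alone had a higher CPM of EIF4EBP1 than of EIF4E. The difference of −0.69 (exact permutation p = 0.143, adjusted 0.214) shrank to −0.18 without it.

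Among the eIF4G scaffolds, EIF4G2 (ENSG00000110321.18), a shortened relative that lacks the region for eIF4E and serves cap-independent initiation, was at 1029.9, 846, 900.4 and 839.8 CPM in the vehicle libraries and at 1122, 1115, 1141 and 1368 CPM in the treated libraries. The groups did not overlap, and vehicle replicate 1 and TP-472 replicate 4 were the highest of their groups. Both libraries were also the highest of their groups for EIF1, EIF3J, EIF4EBP2, EIF4G3 and EIF5B. Over all tested genes, their deviations from the group means correlated by 0.40, and the cause was not tested. The EIF4G2 estimate was 0.39 on the log2 scale (SE 0.12, adjusted p = 0.0360), and the same without vehicle replicate 3 (adjusted p = 0.0117), under the fold limit in both. With the GC offset it was 0.21 and no longer passed the adjusted p (0.283).

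EIF4G1 (ENSG00000114867.21), the main scaffold, was at 540.1, 482, 792 and 481 CPM in vehicle and at 612, 557, 534 and 576 CPM in treated cells. Vehicle replicate 3 was above all other libraries, and the groups overlapped. Its log2 fold change was −0.01 (SE 0.17, adjusted p = 0.967), and 0.19 without that library (adjusted p = 0.0602). With the GC offset it was 0.26 and passed the adjusted p (0.0147), under the fold limit.

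EIF4G3 (ENSG00000075151.20), a further scaffold, was at 79.99, 69.4, 64.0 and 69.4 CPM in vehicle and at 59.4, 52.8, 57.9 and 65.9 CPM in treated cells. TP-472 replicate 4 lay above vehicle replicate 3, and the other treated libraries lay below all vehicle ones. The EIF4G3 estimate was −0.26 on the log2 scale (SE 0.11, adjusted p = 0.0959), and −0.30 without vehicle replicate 3 (adjusted p = 0.0131), under the fold limit. The log2 ratio of EIF4G1 to EIF4G2 fell short of the threshold with a difference of −0.37 (exact permutation p = 0.0571, adjusted 0.171), and −0.21 without vehicle replicate 3. That of EIF4G1 to EIF4G3 had a difference of 0.28 (exact permutation p = 0.229, adjusted 0.274), and 0.49 without vehicle replicate 3, with no overlap between the groups.

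The proteins that assist eIF4A were not called with or without vehicle replicate 3, but EIF4H was called in 2 of the 8 fits with a library left out. EIF4H, which stimulates the helicase, had means of 344 ± 81.9 and 500.1 ± 31.8 CPM (SD, n = 4), with an estimate of 0.54 on the log2 scale (adjusted p = 0.0388), and 0.40 without vehicle replicate 3 (adjusted p = 0.00788), under the fold limit in both, and with the GC offset it missed the adjusted p (0.56, adjusted p = 0.0571). EIF4B, which does the same and shares an RNA-binding domain with it, had means of 591 ± 163 and 546 ± 14.3 CPM (SD, n = 4), and an estimate of −0.11 on the log2 scale (adjusted p = 0.669), and −0.28 without vehicle replicate 3 (adjusted p = 0.0222), where the treated libraries lay below all vehicle ones.

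Of the 5 late factors, 3 were called higher in all libraries and 2 without vehicle replicate 3, beside 12% of all genes in both fits. All 5 were higher by the adjusted p alone in all libraries, beside 17.2% of all genes, and without vehicle replicate 3, beside 28.6%. The same held with the GC offset, beside 25.2%, but not in every other fit. Over the 18 alternative fits the adjusted p reached 0.0922 for EIF5A, 0.106 for EIF5A2 and 0.0506 for EIF5B. EIF5 (ENSG00000100664.11, chr14:103333544-103345025), the GTPase activator of eIF2 at the start codon, showed the largest fold change of the 42 genes with and without vehicle replicate 3, whereas EIF6 ranked first with the GC offset. It was at 253, 271, 182 and 281 CPM in the vehicle libraries and at 482, 489.8, 497 and 501 CPM in the treated libraries. The treated libraries lay close together and far above every vehicle library. EIF5 rose 1.99-fold, a log2 fold change of 1.00 (SE 0.14, adjusted p = 0.00129), with 0.87 both without vehicle replicate 3 (adjusted p = 5.92e-06) and with the GC offset, and was called in all 8 fits with a library left out.

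EIF6 (ENSG00000242372.8, chr20:35278911-35284985) was at 83.0, 93.9, 94.4 and 92.8 CPM in the vehicle libraries and at 154, 180.4, 160.2 and 136 CPM in the treated libraries. The vehicle libraries were tight, the treated ones spread more widely, and the groups were far apart. EIF6 rose by a log2 fold change of 0.79 (SE 0.11, adjusted p = 0.00122), 0.81 without vehicle replicate 3 (adjusted p = 0.000106) and 1.03 with the GC offset (adjusted p = 0.000685), and the call held in all 8 fits with a library left out.

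EIF5A2 (ENSG00000163577.8, chr3:170888415-170908693) encodes a paralog of eIF5A, the hypusine-bearing protein that helps ribosomes through difficult peptide bonds. It was at 25.6, 29.03, 13.1 and 26.4 CPM in the vehicle libraries and at 34.5, 36.7, 36.5 and 40.3 CPM in the treated libraries. The groups did not overlap, and vehicle replicate 3 was about 0.486 times the mean of the other vehicle libraries. The log2 fold change of 0.65 (SE 0.22, adjusted p = 0.0463) became 0.45 without that library (adjusted p = 0.000765), and the call held in only 1 of the 8 fits with a library left out. The log2 fold change of EIF5A2 also lost its call with the GC offset (0.49), in limma-voom (0.42) and without the filter on low counts (0.63, adjusted p = 0.0579).

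EIF5A itself (ENSG00000132507.18) was at 435, 461, 525 and 456 CPM in vehicle and at 591, 671, 649 and 554 CPM in treated cells. The groups were apart, with vehicle replicate 3 the highest vehicle library. Its log2 fold change was 0.39 (SE 0.11, adjusted p = 0.0252), and 0.45 without vehicle replicate 3, under the fold limit, whereas it was called with the GC offset (0.62, adjusted p = 0.00248). The log2 ratio of EIF5A to EIF5A2 differed by −0.31 (exact permutation p = 0.543, adjusted 0.543) and by 0.00 without vehicle replicate 3. EIF5B, the GTPase that joins the subunits, had means of 62.0 ± 8.81 and 88.9 ± 9.61 CPM (SD, n = 4) and a log2 fold change of 0.52 (adjusted p = 0.0171), and 0.42 without vehicle replicate 3.

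**Figure D3:**
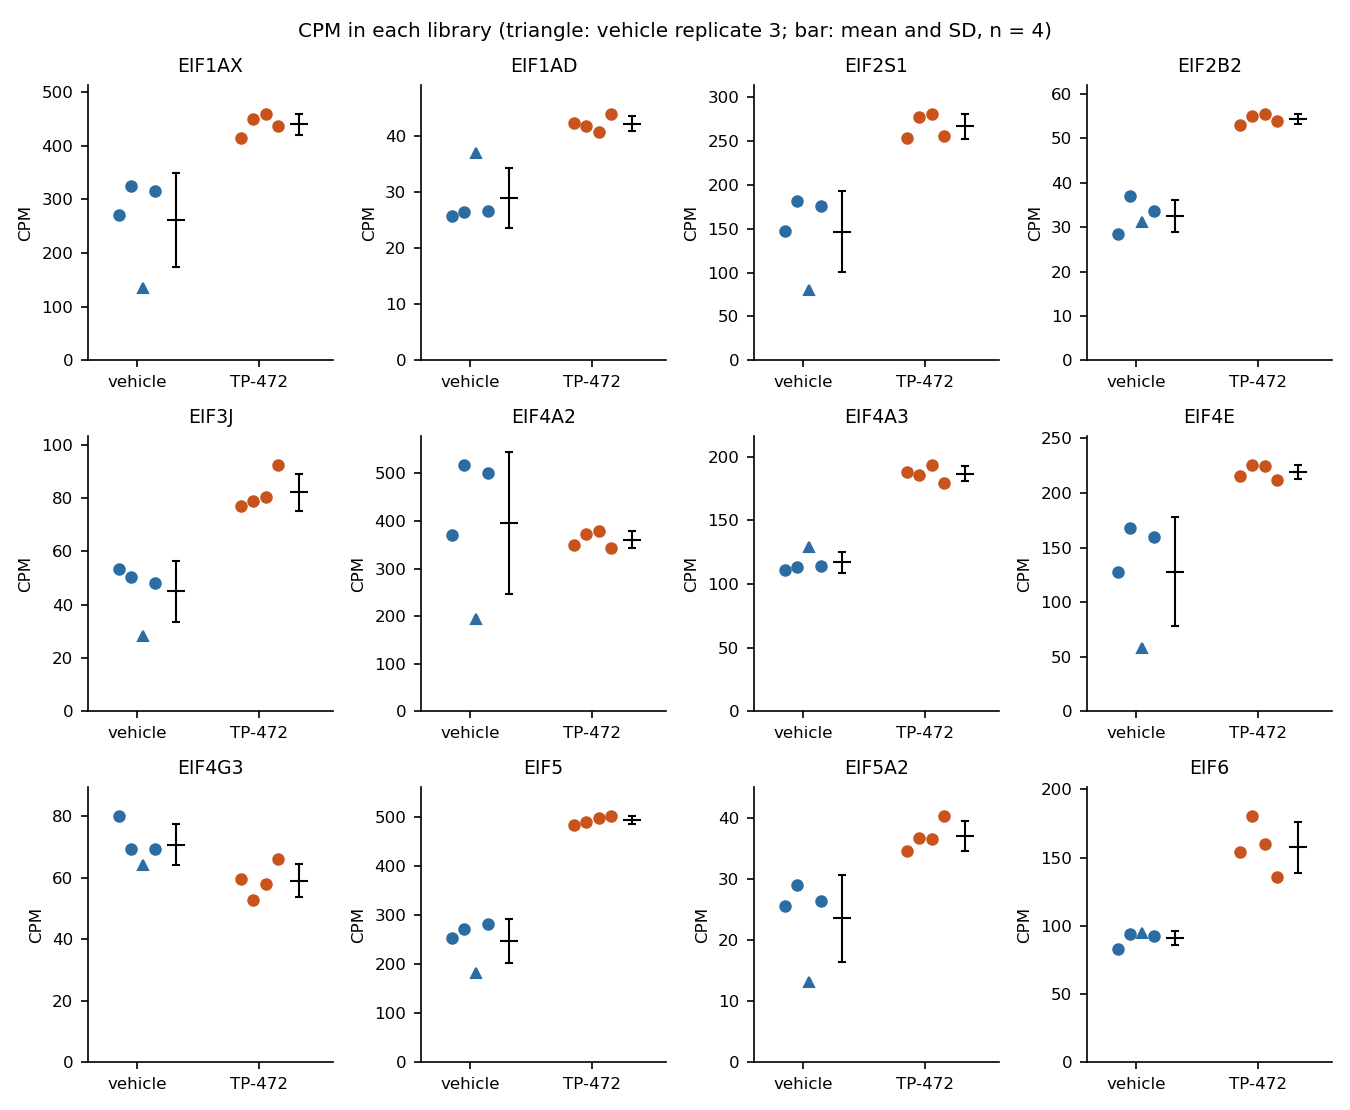
CPM of 12 genes in each library, for vehicle on the left and TP-472 on the right of each panel, with vehicle replicate 3 as a triangle and the mean and SD (n = 4) as a bar. EIF5, EIF6, EIF2B2 and EIF4A3 are far apart between groups in every library, whereas the vehicle values of EIF1AX, EIF2S1, EIF4A2 and EIF4E spread widely through vehicle replicate 3.

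**Figure D4:**
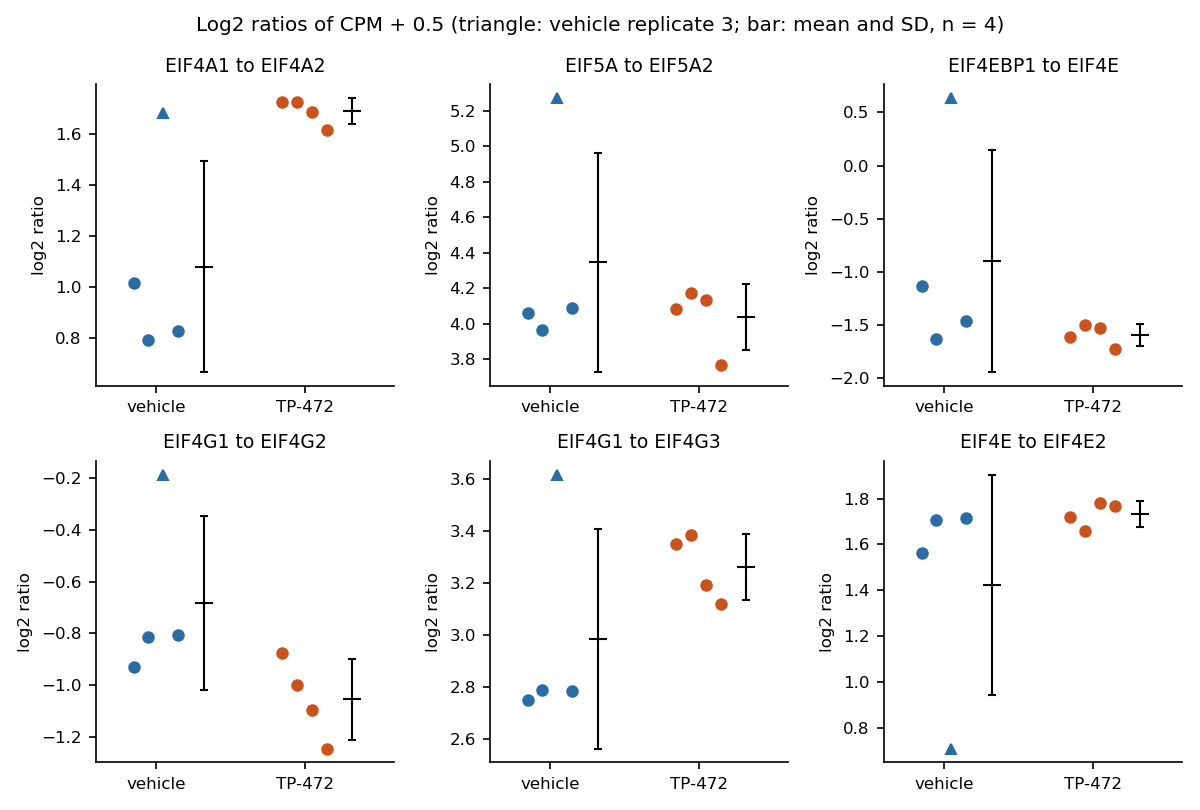
The log2 ratio of CPM + 0.5 of 6 gene pairs in each library, with vehicle replicate 3 as a triangle and the mean and SD (n = 4) as a bar. Vehicle replicate 3 lies apart from the other vehicle libraries in every panel, and without it the groups are separate for EIF4A1 to EIF4A2 and for EIF4G1 to EIF4G3.

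Levels of different genes were compared per kilobase of exon. The median over the 42 genes was 34.1 CPM per kb in vehicle and 46.3 CPM per kb in treated cells. EIF5A and EIF4A1 led in both groups, at 167 and 149 CPM per kb in vehicle and at 219 each in treated cells, followed in vehicle by EIF3I at 141 and EIF2S3 at 130.5 CPM per kb. The lowest were EIF5A2 at 4.21, EIF2B2 at 5.98 and EIF2B5 at 6.11 CPM per kb in vehicle. Subunits of a complex were not at equal levels. The 5 eIF2B genes lay between 5.98 and 11.4 CPM per kb in vehicle, whereas the subunits of eIF2, their substrate, were at 25.9 for EIF2S1, 73.0 for EIF2S2 and 130.5 for EIF2S3. In treated cells these were at 47.1, 99.3 and 147 CPM per kb, so the alpha subunit remained the lowest. Within eIF3, levels ran from 14.1 CPM per kb for EIF3J and EIF3F to 141 for EIF3I. EIF4E was at 9.10 CPM per kb in vehicle, under its scaffold EIF4G1 at 69.5 and its inhibitor EIF4EBP1 at 60.3. The order against EIF4EBP1 rests on the exon lengths, 14.1 kb for EIF4E and 1.07 kb for EIF4EBP1. Not divided by length, the vehicle means were 128 CPM for EIF4E and 64.7 CPM for EIF4EBP1. These means include vehicle replicate 3, the lowest vehicle library for EIF4E and the highest for EIF4EBP1. With the longest transcript as length, the median in vehicle was 57.4 CPM per kb and the order changed in places. EIF4A1, at 450.3 CPM per kb, then stood above EIF5A at 311, and EIF2B4 took the place of EIF2B5 among the 3 lowest.

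**Figure D5:**
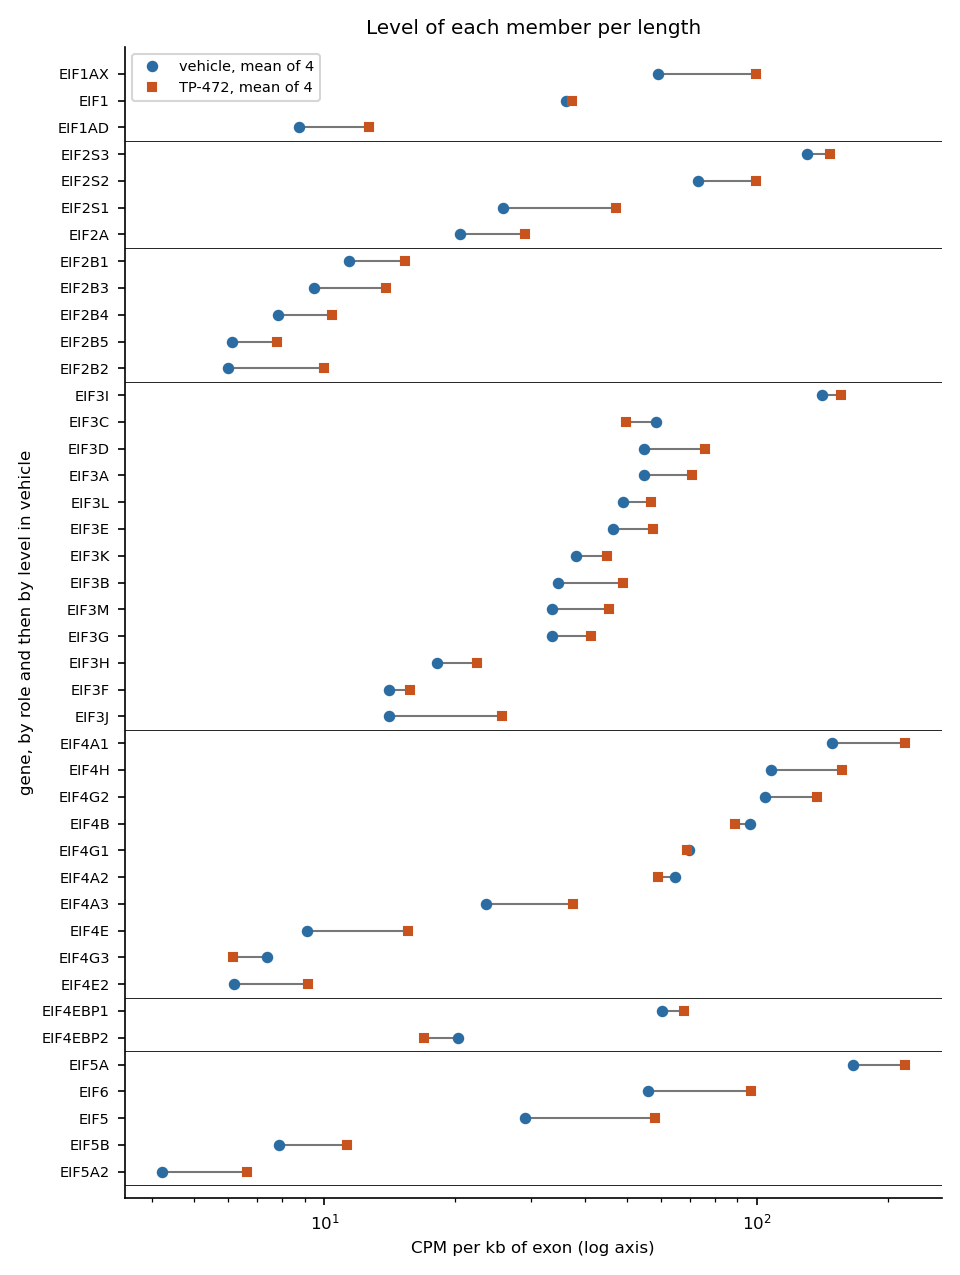
Mean CPM per kb of exon of each gene (log axis) in vehicle (circles) and in TP-472-treated cells (squares), n = 4 each, ordered by role and then by level in vehicle. The genes span from 4.21 CPM per kb for EIF5A2 to 167 for EIF5A in vehicle, and the lines between the symbols point to higher levels in treated cells for 36 of the 42 genes.

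Genes that act on or beside the initiation factors were read from 6 further lists of 87 genes, of which 85 were tested. In all, 13 were called higher and 5 lower. Of all genes tested, 12% were called higher and 14.9% lower, and 12% and 13.4% without vehicle replicate 3, which are the shares to set beside the counts of each list. Among the 10 regulators of the integrated stress response, which converges on phosphorylation of eIF2, 0 were called higher and 2 lower, and 1 and 2 without vehicle replicate 3, with a median log2 fold change of 0.06 in all libraries that turned to −0.053 without vehicle replicate 3 and −0.073 with the GC offset. The 2 lower genes were kinases of the alpha subunit. EIF2AK2, the kinase PKR that senses double-stranded RNA and is induced by interferon, fell from 315 ± 39.5 to 151 ± 14.6 CPM (SD, n = 4), a log2 fold change of −1.07 (adjusted p = 0.000467), and −1.11 without vehicle replicate 3. EIF2AK1, the heme-regulated kinase, fell from 149 ± 10.3 to 97.5 ± 7.28 CPM (SD, n = 4), a log2 fold change of −0.61 (adjusted p = 0.00231), and −0.62 without vehicle replicate 3. The downstream factors ATF4, at 0.45 (adjusted p = 0.0313), and DDIT3, at 0.56 (adjusted p = 0.0241), were under the fold limit, and without vehicle replicate 3 ATF4 was at 0.37 and DDIT3 at 0.73, which was called. ATF4 was called with the GC offset (0.62).

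Of the 13 genes of mTOR and MNK control of cap binding, 0 were called higher and 2 lower, and 0 and 1 without vehicle replicate 3, with medians of −0.21 in all libraries and −0.15 without it. PDCD4, which blocks eIF4A, fell from 50.9 ± 13.7 to 25.02 ± 1.09 CPM (SD, n = 4), a log2 fold change of −1.02 (adjusted p = 0.00498), and −1.20 without vehicle replicate 3. TSC2, a brake on mTOR, had −0.96 (adjusted p = 0.0485) and lost its call without vehicle replicate 3 (−0.45) and with the GC offset (−0.49).

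Of 20 tested genes for other initiation factors and helicases, 4 were called higher and 0 lower, and 6 and 0 without vehicle replicate 3, with medians of 0.47 in all libraries and 0.28 without it. They were BZW1, which mimics part of eIF5, with 1.04 on the log2 scale (adjusted p = 0.0108), DENR, which recycles tRNA from the small subunit, with 0.87 (adjusted p = 0.0192), ABCE1, which splits ribosomes after termination, with 0.84 (adjusted p = 0.0242), and BZW2, a relative of BZW1, with 0.67 (adjusted p = 0.00185). All 4 were also called without vehicle replicate 3, at 0.82, 0.67, 0.63 and 0.61 in this order, and BZW2 lost its call with the GC offset (0.46). Of the 8 fits with a library left out, BZW1 and BZW2 were called in all 8, DENR in 5 and ABCE1 in 3. DOHH, which completes the hypusine of eIF5A, and EIF5AL1 were called without vehicle replicate 3 (0.99 and 0.76). They were at 0.56 and 0.62 in all libraries, and DOHH was also called with the GC offset (1.11). DHPS, of the same list, had −0.41 (adjusted p = 0.0356), and −0.31 without vehicle replicate 3 (adjusted p = 0.00863), under the fold limit in both. Every treated library lay below every vehicle library for DHPS, and its estimate with the GC offset was −0.16 (adjusted p = 0.184).

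Of 13 tested elongation and termination factors, 3 were called higher and 1 lower, and 3 and 0 without vehicle replicate 3, with medians of 0.21 in all libraries and 0.10 without it. EEF1E1, a scaffold of the tRNA synthetase complex, had a log2 fold change of 1.15 (adjusted p = 0.0162), ETF1, the release factor, 0.93 (adjusted p = 0.00691) and PELO, a ribosome rescue factor, 0.72 (adjusted p = 0.00234). They were at 0.90, 0.76 and 0.66 without vehicle replicate 3. EEF2K, the kinase that slows elongation, had −0.79 (adjusted p = 0.0197) and lost its call without vehicle replicate 3 (−0.53). EEF1A1, the most abundant gene of the list, had 0.21 (adjusted p = 0.473), and 0.037 without vehicle replicate 3.

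Of the 9 mitochondrial factors 2 were called higher and 0 lower, and 1 and 0 without vehicle replicate 3, with medians of 0.37 in all libraries and 0.27 without it. They were MTRF1L, a mitochondrial release factor, with 0.75 (adjusted p = 0.00545) and MTIF2, the organelle's initiation factor, with 0.68 (adjusted p = 0.0311), and without vehicle replicate 3 MTRF1L was at 0.62 and MTIF2 at 0.50, where its call was lost, as it was with the GC offset (0.58). Of the 20 cytosolic tRNA synthetases, which charge tRNAs with amino acids, 4 were called higher and 0 lower, and 1 and 0 without vehicle replicate 3, with medians of 0.27 in all libraries and 0.19 without it. RARS1 had a log2 fold change of 0.78 (adjusted p = 0.0368), TARS1 of 0.71 (adjusted p = 0.0237), KARS1 of 0.68 (adjusted p = 0.00698) and FARSB of 0.65 (adjusted p = 0.00283). None of these 4 kept its call without vehicle replicate 3, with estimates between 0.53 and 0.57, and FARSB also lost it with the GC offset (0.50). FARSA, the partner subunit of FARSB, had 0.46 (adjusted p = 0.0957) and was called without vehicle replicate 3 (0.71) and with the GC offset (0.84).

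The cells were checked against markers of their label. Of 7 smooth muscle genes, CALD1 was the most abundant at 200 CPM in vehicle, ACTA2 was at 160.3 and TAGLN at 32.3, whereas DES was at 3.25, CNN1 at 1.26 and the defining genes MYH11 and MYOCD were near 0 (0.00703 and 0.0418 CPM). In treated cells MYH11 was at 0.236 and MYOCD at 0.0874 CPM, with every treated library above every vehicle library for MYH11, opposite to DES and TAGLN. Both were under the filter on low counts and so not tested in edgeR. The summed level of the 7 genes was 397 ± 32.2 CPM in vehicle and 324 ± 1.25 CPM in treated cells (SD, n = 4). Of the 5 tested, 2 were called lower, DES and TAGLN (−2.36 and −0.67), beside 14.9% of all genes. Without vehicle replicate 3 they were at −2.40 and −0.64, and ACTA2, at −0.55 in all libraries, was called lower as well (−0.59). That made 3 of the 5, beside 13.4% of all genes. TAGLN lost its call with the GC offset (−0.45). Of the genes of other cell types, PTPRC, CD3E and HBB were at or near 0 in both groups, the 3 endothelial genes summed to 0.107 and 0.473 CPM, and the erythroid pair to 0.0573 and 0.826 CPM. CD68 accounted for nearly all of the leukocyte list, at 7.53 and 10.4 CPM. The CD68 estimate was 0.47 (adjusted p = 0.0307), under the fold limit, and it was called higher with the GC offset (0.62, adjusted p = 0.00858). The epithelial list summed to 10.5 ± 1.21 CPM in vehicle and 19.1 ± 1.62 CPM in treated cells (SD, n = 4), mostly KRT18, which was called higher (1.08, adjusted p = 0.000726, and 1.14 without vehicle replicate 3), with EPCAM and CDH1 below 1 CPM and under the filter. EPCAM was at 0.731 CPM in vehicle and 0.245 CPM in treated cells, with every treated library below every vehicle library, and CDH1 at 0.417 and 0.415 CPM. Their part in the results on initiation factors was not tested.

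Some values rest on reads that could belong to another gene. EIF5A shares sequence with EIF5AL1, which was at 0.825 and 1.27 CPM, and EIF4A1 overlaps the read-through gene SENP3-EIF4A1 on the same strand, at 2.61 and 4.06 CPM. Of the 42 genes, 18 overlap a protein-coding gene on the opposite strand. Among those with values in all libraries, EIF1AD overlaps BANF1, which at 63.9 and 71.7 CPM in vehicle and treated cells was above EIF1AD itself. EIF2S1 overlaps ATP6V1D (40.1 and 64.9 CPM) and EIF3J overlaps SPG11 (88.7 and 53.2 CPM). EIF4A2 overlaps RFC4 (54.7 and 71.1 CPM), EIF4E2 overlaps TIGD1 (15.4 and 21.5 CPM), EIF4G2 overlaps CTR9 (84.2 and 113.6 CPM) and EIF5A overlaps GPS2 (35.0 and 52.6 CPM). The study's methods describe strand-specific libraries, and whether the counting used strand is not given in the sources used here.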

How the data were processed

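RNA from 4 vehicle and 4 TP-472 samples of SK-UT-1 cells was sequenced as bulk libraries. The authors deposited 1 table of estimated counts per gene, made with Salmon 1.4.0 on GRCh38 per the labels' processing notes and summed to genes of GENCODE 34 per the study's methods. The deposited estimated counts are not normalized, between 13.8% and 23.2% of values per library are not whole, and they were rounded here. Depth ran from 32574716 to 38545695 counts per library. Columns were matched to samples by name, and none was left unmatched.

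Of 60282 genes listed, 33192 had a count and 14073 had over 1 CPM in at least 4 libraries. All these genes entered edgeR 4.0.16 (R 4.3.3) with TMM factors, glmQLFit and glmQLFTest, treatment as the only term and Benjamini-Hochberg adjustment, and calls needed an adjusted p under 0.05 and a fold change over 1.5. Ratios of paralogs were log2 of CPM with a pseudocount of 0.5, tested by exact two-sided permutation over 70 assignments. The test code was checked on simulated data. Alternatives were DESeq2 1.42.0, limma 3.58.1 (voom with quality weights), other scaling and filters, unrounded counts, a GC offset, a replicate block, other thresholds and each library left out. Per-kilobase levels used the summed exon length of GENCODE 29, the source of all gene coordinates. Motif matches used RefSeq promoters.

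Values in all 8 libraries are given for called genes, genes whose call changed without vehicle replicate 3, and genes of the 6 ratios. From the other lists, called genes were named, at most 4 per list with the largest change. ATF4, DDIT3, EEF1A1, DOHH, EIF5AL1, DHPS, FARSA, the markers and the full values of EIF3C were added after their values were seen. The genes and lists were chosen with earlier results of these data known, so they are descriptions and not independent evidence.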

Additional observations from a re-analysis of the deposited data

Results flagged for a closer look

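In 10 of 50 groups of 4 values, covering the CPM of the genes with values in all libraries and the ratios, the most extreme library lay further from its nearest neighbour than Dixon's 95% limit allows. Chance gives about 1 such group in 20. The tally cannot be read against that rate, since all groups come from the same libraries and the ratios are built from the same genes. In addition, EIF1AD is among these genes because its call changed without vehicle replicate 3, and EIF3C was added after its values were seen. Of the 10, 8 were vehicle replicate 3, and the gap is given as a share of the whole range of the group. Vehicle replicate 3 was the highest vehicle library for EIF1AD (0.913), EIF4A3 (0.836), EIF4EBP1 (0.885) and EIF3C (0.949). It was also the highest for the ratios of EIF5A to EIF5A2 (0.909), EIF4G1 to EIF4G2 (0.831) and EIF4G1 to EIF4G3 (0.954), and the lowest for the ratio of EIF4E to EIF4E2 (0.846). The others were EIF6, for which vehicle replicate 1 was the lowest (0.856), and EIF4G2, for which TP-472 replicate 4 was the highest (0.898).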

How the results depend on the processing

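The 8 calls among the initiation factors depended on single libraries, from 5 without TP-472 replicate 3 to 12 without vehicle replicate 2, and on the limits, with 23 by the adjusted p alone and 0 at a fold change over 2. DESeq2 called 9, limma-voom 7 and the GC offset 11, of which 6 were among the 8, and the count of genes called lower was 0 in each of these. Over all genes, the count called higher moved as well from 1693, to 1303 without TP-472 replicate 3, 1824 without vehicle replicate 2, 2418 by the adjusted p alone, 2678 with DESeq2 (33192 genes entered), 1710 with limma-voom and 1839 with the GC offset. A fold change over 2 left 639 higher and 1065 lower, and leaving out a library gave 1387 (without TP-472 replicate 3) to 2399 (without vehicle replicate 2) lower. In the other lists, with 85 genes tested, 21 genes were higher and 11 lower by the adjusted p alone, beside 17.2% and 19.1% of all genes. At a fold change over 2 they held 2 and 2, beside the 639 and 1065 of all genes. Their lower count was 3 with limma-voom, beside 1783 over all genes. With a library left out, their higher count ran from 8 (without TP-472 replicate 2) to 15 (without vehicle replicate 4), beside 1331 and 1753 over all genes. Their lower count ran from 2 (without TP-472 replicate 2) to 6 (without vehicle replicate 2), beside 1403 and 2399. Their median log2 fold change ran from 0.077 to 0.17.

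Estimates near 0 changed sign. EIF1 had −0.061 with the GC offset, EIF3F had −0.021, and EIF4G1 had 0.26. Limma-voom gave −0.029 for EIF2S3, 0.13 for EIF3C and 0.23 for EIF4G1. With a library left out, EIF1 ran from −0.060 to 0.19, EIF3C from −0.34 to 0.12, EIF4A2 from −0.36 to 0.022 and EIF4G1 from −0.086 to 0.19. The cause was not tested.

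No pairing by replicate number was seen. Deviations from the group means correlated by −0.06, 0.12, −0.17 and −0.18 between libraries with the same number, and no vehicle library correlated best with its own number. The vehicle mean includes vehicle replicate 3, which enters every vehicle deviation, so these correlations cannot decide whether the libraries were paired. The replicate block gave 6 initiation factors higher, 11 genes of the other lists higher and 3 lower, with 1500 higher and 1555 lower of all 14073 genes, and an EIF4G1 estimate of 0.022. The replicate block with the GC offset gave a log2 fold change of EIF1 of −0.038 and a log2 fold change of EIF4G1 of 0.26. With the longest transcript as length, the median level in vehicle was 57.4 against 34.1 CPM per kb. With genes scaled to unit variance the first component held 55.4% of the variance against 65.8%.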
